A study of Mus musculus with 12 samples.

Results

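The comparison described here sets regulatory T cells made in culture against regulatory T cells taken directly from mice, both wild type. It uses 6 of the 12 samples of the series: 3 libraries of WT iTregs, induced from naive CD4+ T cells, and 3 libraries of WT nTregs, sorted as freshly isolated T-regulatory cells. All came from C57BL/6 mice aged 8 weeks, and were wild type for Gclc, the gene of the enzyme subunit that catalyses the first step in making glutathione. The other 6 libraries, iTregs and nTregs of Gclc mutant mice, entered only the shared estimate of the spread. Whether replicate libraries stem from different mice or cultures is not stated in the labels, so p-values measure the spread between these libraries, which may be technical. The sources used here give neither the gate of the sort nor the organ nor the culture conditions. The starting cells, the culture and the time in it differ together between the groups and cannot be told apart.

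Regulatory T cells restrain immune responses. They depend on the transcription factor FOXP3 and on interleukin 2, which they take up through a receptor that contains the alpha chain encoded by Il2ra. Natural Tregs arise mainly in the thymus and recirculate or settle in tissues, whereas induced Tregs are produced from naive cells by T cell receptor stimulation with TGF-beta and interleukin 2. Many genes of the mature Treg programme, among them Ikzf2 (Helios), Itgb8 and Klrg1, are associated with thymic origin or with residence and activation in the body.

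The WT iTreg libraries held 33534022, 34990124 and 38020219 counts in all and the WT nTreg libraries 29188847, 28707579 and 31199135. Values are CPM, that is counts scaled to a common library total, with totals adjusted by the trimmed mean of M values. Fold changes are log2 of iTreg over nTreg, so that a positive value is higher in iTregs, each with its standard error from edgeR's quasi-likelihood test. Adjusted p is that test's Benjamini-Hochberg value over all 17977 genes tested, and a gene is said to be higher, lower, to have risen or to have fallen when it is below 0.05.

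Culture-induced and fresh Tregs differed across most of the transcriptome. Of 17977 genes tested, 12486 (69.5%) differed, 6066 (33.7%) higher and 6420 (35.7%) lower in iTregs. At least 2-fold differences were found for 5241 genes (29.2%), of which 2026 (11.3%) were higher and 3215 (17.9%) lower. Requiring evidence for a change beyond 2-fold, by edgeR's glmTreat, left 3470 genes, 1166 of them higher. Many of the lower genes were near absent from the culture: 740 of the 3215 had at most 3 counts over the 3 iTreg libraries and 470 had none, while 89 of the 2026 higher genes had at most 3 counts in nTregs and 32 none. The median log2 fold change over all genes was -0.02. The 2 groups of 3 libraries did not overlap for 77.8% of genes, the background for every statement below that values did not overlap.

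**Figure D1:**
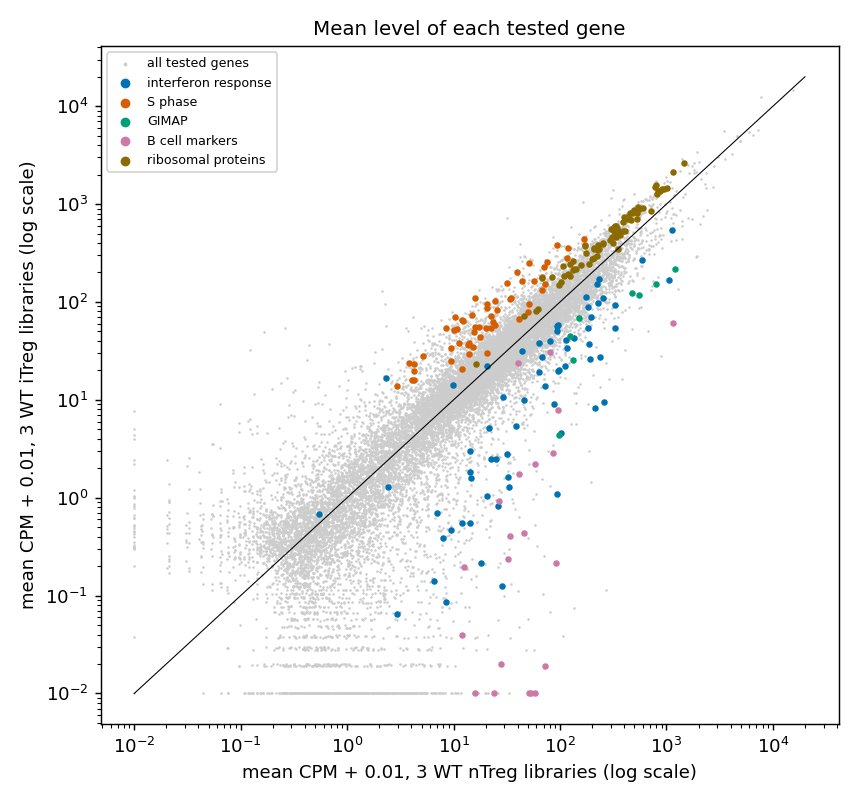
Mean CPM of each tested gene, with 0.01 added, over the 3 WT nTreg libraries (x axis) and the 3 WT iTreg libraries (y axis), both on log scales with the line of equality. Grey points are all 17977 genes; S-phase genes and nearly all ribosomal protein genes lie above the line, GIMAP genes, B cell markers and most interferon-stimulated genes below it, and B cell markers with no count in iTregs along the lower edge.

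Transcripts of other cell types were present in the fresh sort and scarce in the culture. On 12 lists of markers of cells other than CD4+ T cells, 99 genes passed the filter on low counts. Of these 83 were lower in iTregs (35.7% of all genes were) and 1, Fkbp11 on the plasma cell list, was higher. Many passed the filter only through the nTreg libraries, so these counts are a description and not support. All 21 B cell markers were lower in iTregs, against 35.7% of all genes, and their summed level was 128, 130 and 139 CPM in iTregs against 1980, 2000 and 2300 CPM in nTregs. Cd22, a B cell surface lectin, was absent from all iTreg libraries and at 42.1, 57.9 and 72.7 CPM in nTregs. Pax5, the factor that commits cells to the B lineage, was likewise at 0 in iTregs and at 38.3, 49.0 and 64.9 CPM in nTregs. The third nTreg library was the highest for both, and for 20 of the 21 B cell markers. In iTregs 5 of the 21 were at 0 in every library, while Ighm, the immunoglobulin mu chain, remained at 58.6, 58.1 and 67.6 CPM against 1200, 1060 and 1150 CPM. In bulk samples fewer cells of a type and less RNA per cell cannot be told apart.

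Myeloid, dendritic and red cell transcripts were also higher in the fresh sort. Monocyte and macrophage markers summed to between 3.5 and 4.92 CPM in iTregs and between 117 and 128 CPM in nTregs, and 13 of the 23 markers were at 0 in all iTreg libraries. Cybb, the phagocyte NADPH oxidase subunit, was at 0 in iTregs and at 44.2, 53 and 53.4 CPM in nTregs, at least 1770-fold lower against a floor of 3 counts over the 3 libraries. Dendritic cell markers summed to between 34.1 and 50.7 CPM against 453 to 613 CPM. The most abundant of them were Cd74 and MHC class II genes, which B cells express too. Erythroid markers summed to at most 1.7 CPM in iTregs and to 394, 155 and 117 CPM in nTregs, the first nTreg library standing above the other two. Hbb-bs, a beta globin, contributed 99.9, 41.4 and 31.9 CPM to these sums; globin genes have near-identical copies, so the share of each is uncertain. Plasma cell markers, led by Jchain, summed to between 3.62 and 4.78 CPM in iTregs and to 134, 87.7 and 89.0 CPM in nTregs.

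**Figure D2:**
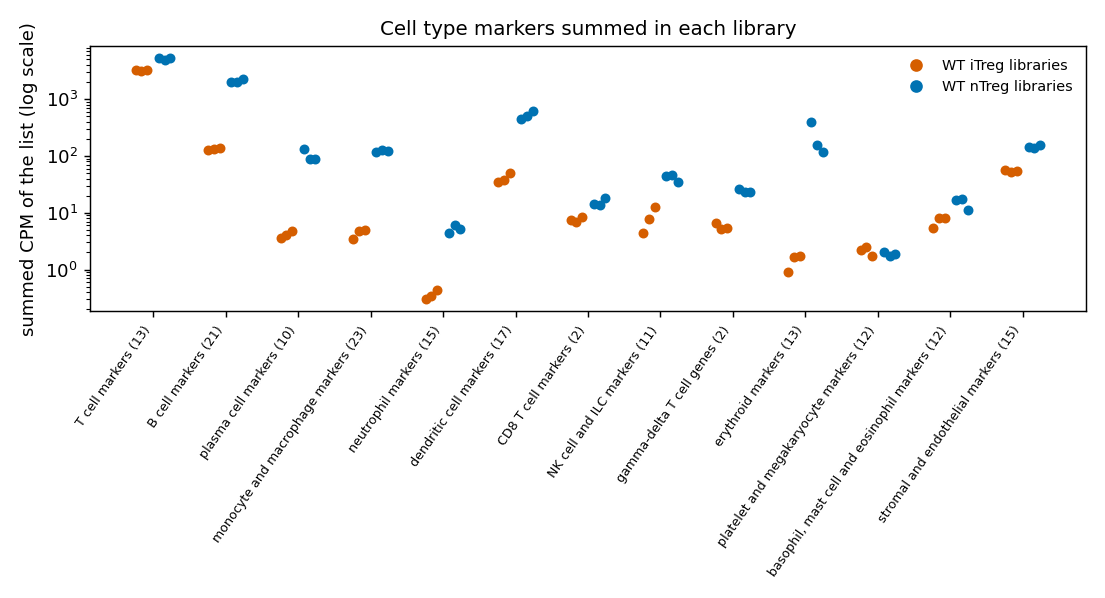
Summed CPM of each list of cell type markers (log axis), 1 point for each of the 3 WT iTreg and 3 WT nTreg libraries, with the number of genes in each list in parentheses. B cell markers lie at 128 to 139 CPM in iTregs and 1980 to 2300 CPM in nTregs, T cell markers at 3150 to 3300 and 4910 to 5310 CPM, and platelet markers at about the same level in both.

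Markers of other lymphocytes were low in sum in both groups. NK cell and innate lymphoid markers summed to 4.37, 7.73 and 12.6 CPM in iTregs and 43.8, 45.9 and 34.1 CPM in nTregs. Of 9 tested 5 were lower, against 35.7% of all genes. Klrb1c was lower by a ratio of 232 (95% exact interval of the counts 79.1 to 1130). Both gamma-delta T cell genes, Trdc and Sox13, were lower, against 35.7% of all genes. Their sums were 6.59, 5.15 and 5.35 CPM in iTregs and 26.2, 23.5 and 22.8 CPM in nTregs. Cd8b1, which marks CD8 T cells, was at 6.26, 6.01 and 7.11 CPM in iTregs and 10.7, 9.47 and 12.1 CPM in nTregs, and did not pass the test (adjusted p = 0.273). It passed at a log2 fold change of -0.75 with the 6 WT libraries alone (adjusted p = 0.000157), with a replicate block on those 6 (adjusted p = 0.000296) and, at -0.74, without nTreg mutant library 1 (adjusted p = 0.00024). Platelet markers summed to a like level in both, from 1.76 to 2.46 CPM in iTregs and from 1.75 to 2.0 CPM in nTregs. T cell markers were themselves lower in iTregs, 13 of 13, against 35.7% of all genes. Their median log2 fold change was -0.8, with sums of 3260, 3150 and 3300 CPM against 5280, 4910 and 5310 CPM. The part that other cells have in the lower genes below was not tested. Dropping all 99 markers from the results, without a new fit, left 12402 genes called, 3135 of them at least 2-fold lower. The marker genes themselves were thus 80 of the 3215.

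Antigen receptor segments of both lymphocyte lineages were lower in iTregs, those of B cells by far more. Immunoglobulin segments had summed levels of 61.2, 61.1 and 71.5 CPM in iTregs against 2229, 1832 and 2017 CPM in nTregs. Of the 182 that passed the filter 171 had no count in iTregs, so they passed through the nTreg libraries alone and had to be lower. Of 211 T cell receptor segments 181 were lower (85.8%, against 35.7% of all genes) and 0 higher, with sums of 1544, 1475 and 1560 CPM in iTregs and 3160, 2884 and 3082 CPM in nTregs. Among the constant genes, Trac was at 270, 260 and 289 CPM against 528, 471 and 481 CPM (log2 fold change -0.85), and Trbc2 fell by 1.03. The groups did not overlap for either. Reads of near-identical segments were counted at every alignment, so single segments are uncertain.

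Turning to the Treg programme, iTregs expressed Foxp3 at a lower level than nTregs and showed more Il2ra, but most of the signature of fresh Tregs was lower. Of 42 signature genes tested, 28 were lower and 7 higher, against 35.7% and 33.7% of all genes, with 24 and 3 at least 2-fold. Their median log2 fold change was -1.21. Foxp3 (chromosome X, 7579676 to 7595243, plus strand of GRCm38) was at 300, 287 and 291 CPM in iTregs and 610, 564 and 559 CPM in nTregs. Every iTreg library was below every nTreg library, with a log2 fold change of -0.98 ± 0.15 (SE; adjusted p = 7.55e-05). Il2ra, the high-affinity interleukin 2 receptor chain, was at 1270, 1240 and 1380 CPM in iTregs and 826, 797 and 734 CPM in nTregs. It was higher in all 3 iTreg libraries (log2 fold change 0.72 ± 0.07, adjusted p = 1.92e-06).

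Helios showed one of the widest gaps of the signature. Ikzf2, which encodes it and is used as a mark of thymic origin, lies on chromosome 1 between 69531214 and 69687245. It was at 22.4, 30.4 and 31.3 CPM in iTregs and at 902, 922 and 840 CPM in nTregs. The groups were far apart, with a log2 fold change of -4.98 ± 0.37 (adjusted p = 1.68e-07). Its relative Ikzf4 (Eos), a FOXP3 partner, went the other way, at 201, 195 and 162 CPM in iTregs and 121, 133 and 134 CPM in nTregs (log2 fold change 0.52). Nrp1, a semaphorin receptor also used to mark natural Tregs, was at 62.2, 63.4 and 73.8 CPM against 173, 182 and 190 CPM and fell by 1.45 on the log2 scale.

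Several surface molecules of the signature were lower in iTregs by very different steps. Klrg1, an inhibitory receptor of terminally differentiated Tregs (chromosome 6, 122270596 to 122282882), had no count in any iTreg library and was at 36.3, 61.1 and 61.9 CPM in nTregs, at least 1870-fold lower. Itgb8, the integrin chain that releases active TGF-beta, was at 0.269, 0.172 and 0.297 CPM in iTregs and 74.9, 76.7 and 61.5 CPM in nTregs (log2 fold change -8.15 ± 0.31). Tigit, an inhibitory receptor, was at 2.19, 2.23 and 2.4 CPM against 62.3, 62.6 and 53.3 CPM. For these 3, iTreg libraries lay far below the lowest nTreg library. Ctla4, which removes costimulatory ligands from antigen-presenting cells, was lower by a smaller step, at 128, 132 and 128 CPM against 352, 341 and 292 CPM (log2 fold change -1.34 ± 0.13). Itgae (CD103), which binds E-cadherin and is known as a TGF-beta target, was at 18.8, 16.8 and 14.2 CPM against 104, 130 and 99.3 CPM (log2 fold change -2.75).

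**Figure D3:**
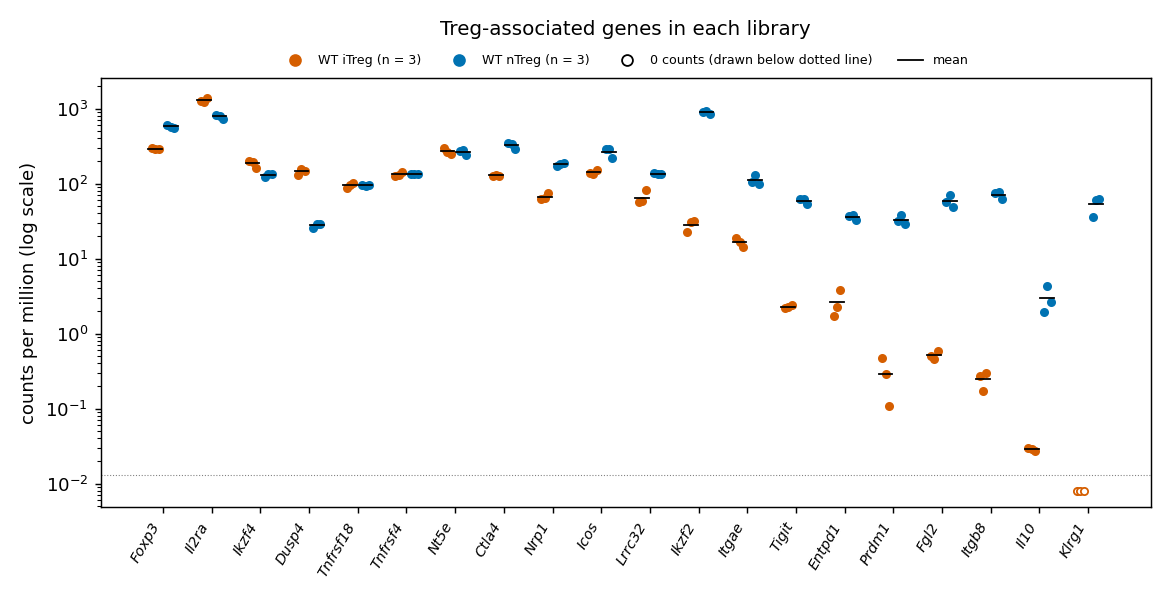
CPM of 20 Treg-associated genes (log axis), 1 point for each of the 3 WT iTreg and 3 WT nTreg libraries, with short lines at the group means and open points for 0 counts. Foxp3 lies at 287 to 300 CPM in iTregs and 559 to 610 CPM in nTregs, Il2ra, Ikzf4 and Dusp4 are higher in iTregs, Tnfrsf18, Tnfrsf4 and Nt5e overlap, and Klrg1 has no count in iTregs.

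Among 23 suppressive mediators 12 were lower and 7 higher, against 35.7% and 33.7% of all genes. Fgl2, a secreted suppressive protein, fell by 6.79 on the log2 scale, from 55.9, 70.6 and 48.5 CPM in nTregs to 0.509, 0.458 and 0.594 CPM in iTregs. Entpd1 (CD39), which degrades extracellular ATP, was at 1.74, 2.23 and 3.84 CPM in iTregs and 37.1, 38.5 and 33.0 CPM in nTregs, whereas its partner in adenosine production, Nt5e (CD73), overlapped between groups (300, 267 and 245 CPM against 268, 284 and 244 CPM, adjusted p = 0.905). Il10 had 3 counts in all over the iTreg libraries and was at 1.93, 4.28 and 2.6 CPM in nTregs, a ratio of 107 (95% exact interval of the counts 36.2 to 521). On the higher side, Lgals3, a galectin, was at 34.7, 38.2 and 49.2 CPM against 5.06, 6.1 and 5.98 CPM (log2 fold change 2.83). Cd274 (PD-L1) and Tgfb1 rose by less, with log2 fold changes of 0.89 and 0.5.

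Among the 7 signature genes that were higher in iTregs were a phosphatase and a cytokine inhibitor. Dusp4, a phosphatase of MAP kinases, was at 132, 155 and 149 CPM against 25.7, 28.5 and 29.2 CPM (log2 fold change 2.39 ± 0.12), with no overlap. Socs2, a feedback inhibitor of cytokine signalling, was at 159, 142 and 167 CPM in iTregs and 54.0, 53.3 and 43.8 CPM in nTregs. The costimulatory receptors Tnfrsf18 (GITR) and Tnfrsf4 (OX40) overlapped between groups, with log2 fold changes of 0.01 and -0.02.

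Transcription factors of Tregs and helper lineages differed one by one. Of 53 tested, 15 were higher and 23 lower (28.3% and 43.4%), near the 33.7% and 35.7% of all genes. Prdm1 (BLIMP-1), which directs effector Tregs, was at 0.479, 0.286 and 0.108 CPM in iTregs and 31.9, 38.2 and 29.0 CPM in nTregs, a log2 fold change of -6.83 ± 0.28. Batf, an AP-1 factor of tissue Tregs, was at 5.66, 7.21 and 6.46 CPM against 23.7, 29.1 and 26.6 CPM, and Tbx21, Tox2 and Bcl6, factors of T helper 1 and follicular programmes, had log2 fold changes of -2.74, -5.12 and -2.01. Irf4, which is induced by antigen receptor signals, was higher in every iTreg library, at 557, 608 and 568 CPM against 137, 137 and 109 CPM (4.53-fold higher, adjusted p = 2.34e-08). Bach2, a repressor of effector genes, rose by 0.98, and Ahr overlapped between groups.

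Of 41 genes of the TGF-beta pathway 16 were higher and 11 lower (39.0% and 26.8%, against 33.7% and 35.7% of all genes). By at least 2-fold 19.5% were higher and 17.1% lower, against 11.3% and 17.9% of all genes. Pmepa1, a feedback target of SMAD signalling, was at 60.9, 64.9 and 62.3 CPM in iTregs and 13.1, 13.6 and 14.1 CPM in nTregs (log2 fold change 2.2 ± 0.11). The receptor Tgfbr1 and Furin, which processes the TGF-beta precursor, rose by 1.01 and 1.92. Smad3, a signal transducer, was lower at 46.9, 48.1 and 48.5 CPM against 77.8, 83.1 and 78.9 CPM. Smad7, the inhibitory SMAD, was at 49.4, 48.6 and 38.8 CPM against 50.9, 48.9 and 53 CPM and did not pass the test (adjusted p = 0.259). Lrrc32, which encodes the GARP protein that holds latent TGF-beta on Tregs, fell by 1.06.

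Cytokine genes differed in both directions, 21 of 40 higher and 16 lower (52.5% and 40%, against 33.7% and 35.7% of all genes). Most of these changes were at least 2-fold, 19 and 14, against 11.3% and 17.9% of all genes. Il17f, an inflammatory cytokine next to Il17a on chromosome 1, was at 27.6, 33.0 and 35.8 CPM in iTregs and 0.102, 0.202 and 0.031 CPM in nTregs, the largest rise of the list among members averaging at least 5 CPM in a group (log2 fold change 8.15 ± 0.4). Lta, lymphotoxin alpha, was at 254, 247 and 278 CPM against 41.6, 45.8 and 44.8 CPM. Xcl1, a chemokine that attracts dendritic cells, was at 59.9, 61.4 and 86.9 CPM against 4.17, 3.81 and 4.56 CPM. All 3 separated the groups fully. Il2, which Tregs usually silence, was low in both groups and higher in iTregs, at 10.1, 13.6 and 16.4 CPM against 5.02, 3.81 and 4.37 CPM (log2 fold change 1.6 ± 0.3). Il9, named after its values were seen, was at 4.1, 3.18 and 5.92 CPM in iTregs and had no count in nTregs, at least 135-fold higher.

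Other cytokines were found in the fresh cells. Ccl5, a chemokine of effector T cells and NK cells, was at 12.4, 17.0 and 15.9 CPM in nTregs and at 0 in iTregs, at least 531-fold lower. Penk, the precursor of enkephalins and a gene of activated Tregs, was at 33.5, 41.5 and 34.3 CPM against 1.02, 0.658 and 0.973 CPM. Csf1, the macrophage growth factor, fell by 4.73 on the log2 scale. Ifng was low in both groups, at 3.56, 2.73 and 2.11 CPM in nTregs and at most 0.162 CPM in iTregs (log2 fold change -4.97 ± 1.58, adjusted p = 0.0132). Gzmb (granzyme B) was at 2.42, 3.41 and 9.65 CPM in iTregs and 14.3, 16.4 and 9.36 CPM in nTregs, the third iTreg library lying above the third nTreg library. It did not pass the test (adjusted p = 0.203) but did with the 6 WT libraries alone (log2 fold change -1.37, adjusted p = 0.00967), with a replicate block on those 6 (adjusted p = 0.0173) and without nTreg mutant library 1 (adjusted p = 0.00866).

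Receptors for cytokines were lower with few exceptions. Of 27 receptors of helper and effector T cells 23 were lower, 13 by at least 2-fold, against 35.7% and 17.9% of all genes. Against 33.7% of all genes, 1 of the 27, Il1rl2, was higher, near the threshold (adjusted p = 0.0483). Il1rl1 (ST2), the interleukin 33 receptor of tissue Tregs, was at 0.569, 0.429 and 0.135 CPM in iTregs and 47.1, 63.4 and 40.1 CPM in nTregs (log2 fold change -7.06 ± 0.4). Il23r had no count in iTregs and 9.54, 11.5 and 7.22 CPM in nTregs. Il7r, the survival receptor of resting T cells, was at 36.3, 32.2 and 27.7 CPM in iTregs and 523, 405 and 295 CPM in nTregs, a log2 fold change of -3.67 ± 0.23 with no overlap. Genes of interleukin 2 and STAT5 signalling were 12 of 27 higher and 14 lower, against 33.7% and 35.7% of all genes: Lif, Pim2 and Stat5a rose by 2.41, 1.84 and 1.35, and Il9r and the kinase gene Jak1 had log2 fold changes of -6.78 and -0.82. Bcl2 overlapped between groups, while its relative Bcl2l1, which also protects from apoptosis, rose by 1.45.

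**Figure D4:**
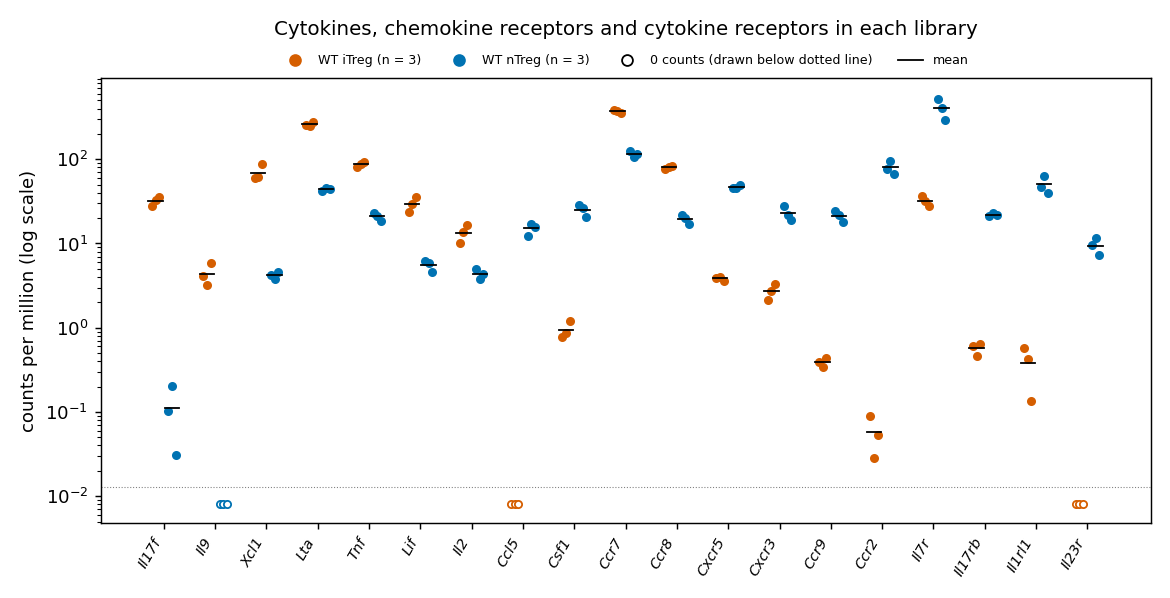
CPM of 19 genes of cytokines, chemokine receptors and cytokine receptors (log axis), 1 point for each of the 3 WT iTreg and 3 WT nTreg libraries, with short lines at the group means and open points for 0 counts. Il17f, Il9, Xcl1, Lta, Ccr7 and Ccr8 lie higher in iTregs, and Ccl5, Ccr2, Il7r, Il1rl1 and Il23r higher in nTregs.

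Genes that guide cells to tissues had the lowest median among the lists of T cell function. Of 19 chemokine receptors 14 were lower, 13 by at least 2-fold, against 35.7% and 17.9% of all genes. The 3 that were higher made up 15.8%, against 33.7% of all genes. Without iTreg library 3 or nTreg library 3, 2 were higher. The list had a median log2 fold change of -3.05. Ccr2, a receptor for migration into inflamed tissue, was at 0.0898, 0.0286 and 0.054 CPM in iTregs and 77.3, 95.7 and 67.7 CPM in nTregs (log2 fold change -10.37 ± 0.59). Ccr3, an eotaxin receptor, had no count in iTregs and was at 7.64, 8.99 and 5.36 CPM in nTregs, at least 255-fold lower. Ccr9 and Gpr15, receptors for homing to the gut, had log2 fold changes of -5.77 and -6.33, and Cxcr5, which directs cells to B cell follicles but is also abundant in B cells, fell by 3.6. The exceptions were Ccr7, Ccr8 and Cx3cr1. Ccr7, the receptor for entry into lymph nodes, was at 388, 371 and 354 CPM in iTregs and 124, 107 and 116 CPM in nTregs (log2 fold change 1.68 ± 0.11). Ccr8 was at 77.4, 80.5 and 82.7 CPM against 21.8, 20.3 and 17.2 CPM. Cx3cr1 had a log2 fold change of 1.37.

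Of 27 integrin and adhesion genes 19 were lower and 5 higher, against 35.7% and 33.7% of all genes. The higher count was 3 without iTreg library 2 or any 1 nTreg library. Itga4 and Itgb7, which pair into the gut homing integrin, were at 168, 170 and 154 CPM and at 134, 127 and 138 CPM in iTregs. In nTregs they were at 692, 768 and 771 CPM and at 372, 373 and 413 CPM, so that neither overlapped (4.54-fold lower and a log2 fold change of -1.54). Itgb2, the shared chain of leukocyte integrins, overlapped (adjusted p = 0.543).

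Genes of resting and recirculating T cells did not move as one. Of 34 tested, 22 were lower and 5 higher, against 35.7% and 33.7% of all genes. Lef1, a factor of naive T cells, rose by 0.78, while its relative Tcf7 overlapped (415, 393 and 366 CPM against 437, 415 and 469 CPM; adjusted p = 0.214, and 0.0301 with the 6 WT libraries alone). Igfbp4, a binding protein of insulin-like growth factors that naive T cells express, was at 785, 704 and 657 CPM in iTregs and 37.1, 27.8 and 31.2 CPM in nTregs (log2 fold change 4.48). Ly6c1 was at no more than 0.432 CPM in iTregs and at 64.4, 52.2 and 65.4 CPM in nTregs; it is nearly identical to Ly6c2, with which it shares reads. Txnip, an inhibitor of glucose uptake, and Cxcr4, a chemokine receptor, had log2 fold changes of -2.66 and -2.37.

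All 8 GIMAP genes, GTPases linked to lymphocyte survival and quiescence, were at least 2-fold lower, against 17.9% of all genes. They form a cluster of 124 kb on chromosome 6 (48647234 to 48770851), and their summed level was 829.1, 740.3 and 678.6 CPM in iTregs and 3439, 3465 and 3623 CPM in nTregs. Gimap3 was at 241, 212 and 194 CPM against 1150, 1160 and 1240 CPM (log2 fold change -2.46 ± 0.14). Log2 fold changes ranged from -4.47 for Gimap7 to -1.13 for Gimap9.

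Components of the T cell receptor pathway were lower by small steps. Of 40 genes 31 were lower and 2 were higher, against 35.7% and 33.7% of all genes. Of the lower ones 5 were at least 2-fold lower (8 with library-size scaling). That was 12.5% of the list, against 17.9% of all genes. Cd3e was at 175, 176 and 182 CPM in iTregs and 327, 294 and 309 CPM in nTregs (log2 fold change -0.8 ± 0.08). Cd4 showed a small difference, at 399, 416 and 449 CPM against 514, 492 and 472 CPM (log2 fold change -0.23 ± 0.09, adjusted p = 0.0328). That call was lost when any 1 of the libraries iTreg 1, iTreg 2, nTreg 1 or nTreg 2 was left out. Tespa1, an adaptor of the receptor, fell by 2.19, and the kinase gene Zap70 overlapped. The 2 higher members were Malt1, a protease that activates NF-kappaB, and Ubash3b, a phosphatase that dampens receptor signals (log2 fold changes 0.95 and 1.07). Costimulatory and inhibitory receptors were lower in 19 of 26 cases and higher in 4, against 35.7% and 33.7% of all genes. Cd86, a ligand of CD28 and CTLA-4 that is also abundant in antigen-presenting cells, was at 2.07, 2.23 and 2.59 CPM in iTregs and 35.7, 36.0 and 27.0 CPM in nTregs. Cd28 itself overlapped between groups.

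Immediate early genes, which are induced within minutes to hours of a signal, were higher in 18 of 40 cases and lower in 12, against 33.7% and 35.7% of all genes. The Nr4a family, a readout of antigen receptor signals, was higher throughout: Nr4a1 was at 171, 174 and 180 CPM in iTregs and 58.0, 57.9 and 67.0 CPM in nTregs, and Nr4a2 and Nr4a3 rose by 2.4 and 2.3. Jun was at 26.3, 26.1 and 23.7 CPM against 3.83, 3.81 and 4.77 CPM (log2 fold change 2.61 ± 0.23). Fos, the partner of JUN, did not pass the test and was between 1.89 and 2.84 CPM in all 6 libraries. Zfp36 and Zfp36l2, which destabilise cytokine mRNAs, had log2 fold changes of -1.25 and -1.32.

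Interferon-stimulated genes were lower in iTregs with few exceptions. Of 65 tested, 59 were lower, 51 of them by at least 2-fold, against 35.7% and 17.9% of all genes. The median log2 fold change was -2.29. Their summed level was 2814, 2671 and 2726 CPM in iTregs and 8544, 8472 and 7973 CPM in nTregs. Rsad2 (viperin), an antiviral enzyme, was at 0.0599, 0.0573 and 0.108 CPM in iTregs and 7.3, 9.06 and 9.15 CPM in nTregs (log2 fold change -6.74 ± 0.44). Gbp7, a guanylate-binding GTPase, was at 9.04, 8.7 and 10.9 CPM against 266, 278 and 237 CPM (log2 fold change -4.77). Slfn5, of the Schlafen family, was at 8.77, 8.16 and 7.76 CPM against 211, 211 and 222 CPM (log2 fold change -4.71). The groups were apart for all 3. Mx1 and Ly6a (Sca-1) had log2 fold changes of -6.41 and -6.42. The 2 higher members were Ifitm2 (log2 fold change 2.86), which blocks virus entry, and Socs1, a feedback inhibitor of cytokine receptors (log2 fold change 0.51). Monocytes, dendritic cells and B cells express many of these genes too, and the part of such cells was not tested. Of the 65 members 17, 33 and 15 were highest in nTreg libraries 1, 2 and 3, as were 6, 8 and 4 of 19 monocyte and macrophage markers (1 tie), 0, 4 and 9 of 13 dendritic cell markers and 1, 0 and 20 of 21 B cell markers. The split over all 17977 genes was 5827, 5285 and 6532, with 333 ties. Lists of T cell function varied too. It was 14, 20 and 8 for 42 Treg signature genes and 6, 10 and 3 for 19 chemokine receptors. For the 8 GIMAP genes it was 3, 0 and 5.

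Promoters of these genes often hold the interferon-stimulated response element. The letters GAAA, any 2 bases and GAAA again were searched on both strands in RefSeq promoters of assembly GRCm38.p6, from 250 bases before to 50 after a gene's start. They occurred for 28 of the 49 listed genes with a promoter in that table (57.1%), against 3.99% of all 27025 genes. Of the 28 genes with the element 23 were lower (median log2 fold change -2.27), and of the 21 without it 20 were lower (median -1.65). The 250 bases before the start are shown for 3 of the genes above that hold the element wholly before the start. They were taken in order of the size of the change among called members averaging at least 5 CPM in a group. Some members were left out by their chromosome, so these need not be the largest changes of the list. Capitals mark the match, on either strand.
Rsad2, chr12:26456453-26456702, minus strand: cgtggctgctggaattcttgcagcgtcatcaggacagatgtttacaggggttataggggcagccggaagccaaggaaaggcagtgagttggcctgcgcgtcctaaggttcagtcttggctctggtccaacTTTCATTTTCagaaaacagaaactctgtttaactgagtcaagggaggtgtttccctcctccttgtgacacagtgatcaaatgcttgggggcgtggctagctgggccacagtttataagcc
Gbp7, chr3:142530086-142530335, plus strand: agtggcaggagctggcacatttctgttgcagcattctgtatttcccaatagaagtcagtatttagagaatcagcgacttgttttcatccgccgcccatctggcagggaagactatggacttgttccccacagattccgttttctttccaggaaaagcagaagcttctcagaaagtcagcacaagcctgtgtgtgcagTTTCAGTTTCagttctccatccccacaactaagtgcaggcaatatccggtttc
Slfn5, chr11:82951852-82952101, plus strand: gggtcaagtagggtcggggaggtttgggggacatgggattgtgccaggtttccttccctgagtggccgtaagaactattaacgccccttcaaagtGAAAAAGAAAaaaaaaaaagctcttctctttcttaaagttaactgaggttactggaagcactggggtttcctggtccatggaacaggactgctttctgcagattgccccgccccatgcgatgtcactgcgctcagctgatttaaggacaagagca
With the start of the gene counted as 0, the match began at -120 in Rsad2, at -53 in Gbp7 and at -155 in Slfn5. A match in letters is a description of the sequence and not a measured binding site.

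Cell division genes were higher throughout in iTregs. All 58 S-phase genes tested were higher, 51 by at least 2-fold, against 33.7% and 11.3% of all genes, with a median log2 fold change of 1.69. Their summed level was 5803, 6016 and 6962 CPM in iTregs and 2193, 2174 and 1946 CPM in nTregs. Of 53 mitosis genes 49 were higher and 48 at least 2-fold (median 2.09), with sums of 6229, 6705 and 9014 CPM against 2957, 2898 and 2490 CPM. Both sums were highest in the third iTreg library and lowest in the third nTreg library, and the groups did not overlap. Mki67, the common marker of dividing cells, was at 954, 1080 and 1460 CPM in iTregs and 337, 337 and 229 CPM in nTregs (log2 fold change 1.95 ± 0.22). Top2a, which untangles DNA in mitosis, was at 874, 942 and 1340 CPM against 184, 182 and 126 CPM. The 3 mitosis genes that were lower were Cdc25b, Smc4 and Pttg1, with log2 fold changes of -0.38, -0.53 and -0.65. The Cdc25b call was lost without iTreg library 1, iTreg library 2 or nTreg library 3 (adjusted p = 0.0777, 0.0883 and 0.0558).

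E2F factors drive the genes of DNA replication, and their binding letters TTTCCCGC or TTTGGCGC, on either strand, were found in the promoters of 15 of 47 S-phase genes (31.9%), against 1.8% of all genes. All 15 genes with a match and all 32 without were higher, with medians of 1.4 and 1.73. E2f7, a repressive E2F, was at 17.7, 23.3 and 27.9 CPM in iTregs and 4.58, 4.78 and 3.47 CPM in nTregs. Cdc6, which loads the replicative helicase, was at 60.6, 61.2 and 71.1 CPM against 13.3, 13.5 and 9.83 CPM. Mcm5, a subunit of that helicase, was at 220, 222 and 249 CPM against 78.0, 71.1 and 65.1 CPM. None of the 3 overlapped between groups, with log2 fold changes of 2.43, 2.4 and 1.69. They hold the E2F letters wholly before the start and were chosen by the same rule as the interferon genes above. They therefore need not have the largest changes of those that do. Their upstream bases are shown with these letters in capitals.
E2f7, chr10:110745189-110745438, plus strand: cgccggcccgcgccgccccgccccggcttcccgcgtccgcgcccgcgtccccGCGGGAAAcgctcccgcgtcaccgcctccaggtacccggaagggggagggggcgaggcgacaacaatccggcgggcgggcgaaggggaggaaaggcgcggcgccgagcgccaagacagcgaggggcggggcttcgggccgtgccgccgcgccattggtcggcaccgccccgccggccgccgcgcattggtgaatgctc
Cdc6, chr11:98907901-98908150, plus strand: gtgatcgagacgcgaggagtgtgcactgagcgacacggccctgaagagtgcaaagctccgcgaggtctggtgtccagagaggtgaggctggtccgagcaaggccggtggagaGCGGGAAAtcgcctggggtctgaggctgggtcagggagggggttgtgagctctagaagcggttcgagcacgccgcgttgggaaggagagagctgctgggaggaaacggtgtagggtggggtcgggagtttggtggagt
Mcm5, chr8:75109259-75109508, plus strand: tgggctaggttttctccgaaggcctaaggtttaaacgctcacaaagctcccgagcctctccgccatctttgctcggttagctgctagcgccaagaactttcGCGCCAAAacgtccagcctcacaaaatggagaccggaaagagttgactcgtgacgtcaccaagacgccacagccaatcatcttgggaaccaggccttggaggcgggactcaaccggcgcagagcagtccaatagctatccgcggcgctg
The CCAAT box, which many mitotic promoters contain, was found for 31 of 43 mitosis genes (72.1%) and for 41.06% of all genes. Of the genes with it 29 of 31 were higher, and of those without it 11 of 12.

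Inhibitors of the cell cycle moved in both directions. Cdkn1a (p21; chromosome 17, 29090979 to 29100722), a brake on cyclin-dependent kinases and the best known target of p53, was at 100, 131 and 152 CPM in iTregs and 1.9, 2.36 and 2.14 CPM in nTregs. This was one of the 15 largest rises among genes averaging at least 5 CPM in a group and outside the marker lists (log2 fold change 5.9 ± 0.28, adjusted p = 5.43e-09). Cdkn1b (p27), which holds resting cells out of the cycle, was lower at 115, 117 and 94.0 CPM against 257, 270 and 263 CPM. Of 32 p53 targets 21 were higher, 13 by at least 2-fold, and 8 lower, against 33.7%, 11.3% and 35.7% of all genes. Phlda3, an inhibitor of AKT, and Plk2, a polo-like kinase, were at 17.7, 23.9 and 25.7 CPM and at 23.4, 29.1 and 39.7 CPM in iTregs and at most 1.59 and 2.02 CPM in nTregs (log2 fold changes 4.1 and 4.06). Zmat3 rose by 2.05, and Bax and Bbc3, which promote apoptosis, rose by 0.87 and 0.95. Sesn1, a target of p53 and of FOXO factors, fell by 1.77, and Mdm4, an inhibitor of p53, overlapped.

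**Figure D5:**
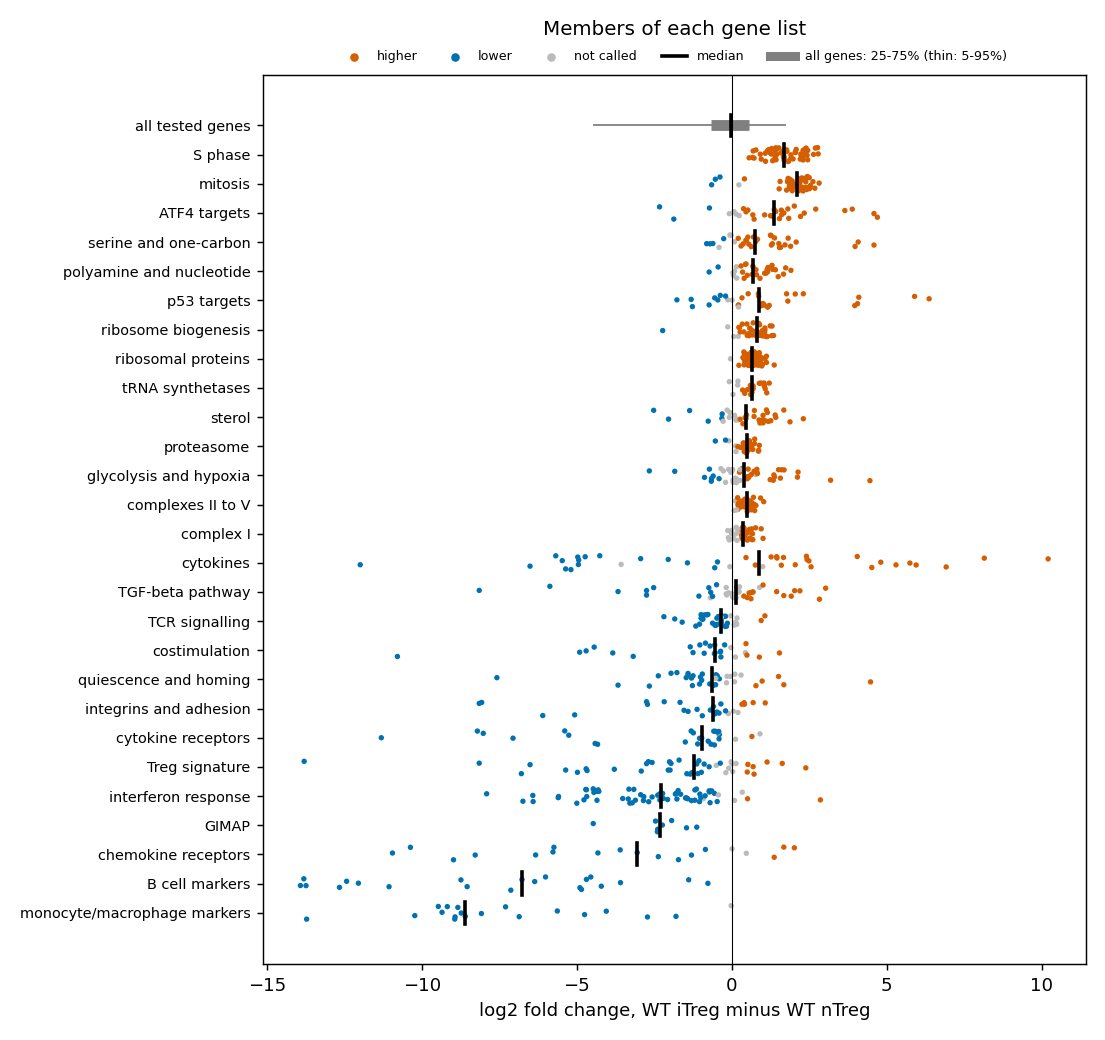
Log2 fold change, WT iTreg minus WT nTreg, of each tested member of 27 gene lists (1 point per gene, coloured by call, black line at the fitted median), below the spread of all 17977 genes (thick bar 25 to 75%, thin line 5 to 95%). S-phase genes all lie above 0, GIMAP genes and B cell markers all below it, and cytokines spread to both sides.

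Genes of growth and protein synthesis were higher by moderate steps. Myc, which drives them, was at 112, 110 and 117 CPM in iTregs and 60.3, 53.4 and 56.5 CPM in nTregs, a log2 fold change of 1.0 ± 0.1. Of 43 genes of MYC and ribosome biogenesis 39 were higher, 14 by at least 2-fold (9 with library-size scaling), against 33.7% and 11.3% of all genes. Npm1 and Ncl, proteins of the nucleolus, were at 1260, 1270 and 1290 CPM and at 1690, 1730 and 1730 CPM in iTregs, against 495, 521 and 480 CPM and 782, 835 and 768 CPM in nTregs. The single lower gene was Mxd4, a MYC antagonist, at 54.7 ± 4.9 CPM in iTregs and 257 ± 6.33 CPM in nTregs (SD, n = 3 libraries each; log2 fold change -2.23 ± 0.2). Ribosomal protein genes were higher in 73 of 75 cases, against 33.7% of all genes. By at least 2-fold 5.33% were higher, fewer than the 11.3% of all genes. Their median log2 fold change was 0.65, with sums of 45180, 45430 and 44860 CPM against 27560, 26890 and 29860 CPM. The 2 not called were Rps27 and Rpl36 (adjusted p = 0.699 and 0.0853). Of 2687 pseudogenes tested 54.7% were higher and 10.7% lower, against 33.7% and 35.7% of all genes. Reads that fit several places were counted at each, and ribosomal protein genes have many processed pseudogenes, so neither group can be counted apart from the other. Aminoacyl-tRNA synthetases were higher in 19 of 23 cases and mitochondrial ribosomal proteins in 51 of 60, against 33.7% of all genes. By at least 2-fold 26.1% and 3.33% were higher, against 11.3% of all genes.

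Pathways that supply nucleotides and one-carbon units were higher as well. Of 31 polyamine and nucleotide genes 24 were higher and 2, Oaz2 and Sat1, were lower, against 33.7% and 35.7% of all genes. Srm, spermidine synthase, was at 66.4, 68.2 and 65.5 CPM in iTregs and 21.1, 18.9 and 19.7 CPM in nTregs. Of 34 serine and one-carbon genes 26 were higher, 15 by at least 2-fold, against 33.7% and 11.3% of all genes. Shmt1, which passes a carbon from serine to folate, was at 64.4, 65.4 and 66.4 CPM against 20.3, 20.1 and 19.0 CPM, and Slc1a4, a serine transporter, at 16.1, 19.6 and 12.3 CPM against 1.09, 0.943 and 0.992 CPM. Neither overlapped (log2 fold changes 1.72 and 3.98). ATF4 targets, which are induced by amino acid shortage and other stresses, were higher in 24 of 31 cases, 19 by at least 2-fold. Over all genes these shares were 33.7% and 11.3%. The median log2 fold change of the ATF4 targets was 1.37. Nupr1 rose by 4.7, Trib3 by 2.34 and Asns, asparagine synthetase, by 2.22. Ddit3 (CHOP), an ATF4 target of severe stress, overlapped, and Ddit4, Slc7a11 and Stc2 were lower.

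Central carbon metabolism differed gene by gene. Of 48 genes of glycolysis and hypoxia 25 were higher and 8 lower, against 33.7% and 35.7% of all genes. Hk2, the inducible hexokinase, was at 31.0, 33.3 and 39.4 CPM in iTregs and 7.5, 8.62 and 7.41 CPM in nTregs (log2 fold change 2.14 ± 0.23). Hk1, the constitutive hexokinase, overlapped, and the glucose transporter gene Slc2a3 was lower at 32.7, 30.0 and 30.5 CPM against 99.1, 119 and 117 CPM. The tricarboxylic acid cycle list held 22 higher genes of 33, among them Idh2 (1.29) and Cs (0.56), with log2 fold changes in parentheses. That was 66.7%, against 33.7% of all genes, but by at least 2-fold 9.09%, against 11.3%. Nuclear genes of respiratory complex I were higher in 25 of 37 cases, and those of complexes II to V with cytochrome c in 37 of 40. None was lower in either list. Over all genes 33.7% were higher and 35.7% lower. The steps were small, with 2.7% and 2.5% at least 2-fold higher, against 11.3% of all genes. Proteasome genes were higher in 29 of 34 cases, against 33.7% of all genes, but none by at least 2-fold. Psme2, an interferon-induced activator subunit, was lower.

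Genes of sterol synthesis were more often higher than lower in iTregs. Of 36 sterol genes 22 were higher, 12 by at least 2-fold, against 33.7% and 11.3% of all genes. Idi1 was at 185, 222 and 264 CPM in iTregs and 41.8, 49.0 and 44.7 CPM in nTregs, and Sqle and Hmgcs1 rose by 1.88 and 1.42. The exporters Abca1 and Abcg1 and the ligase Mylip, all known as targets of the sterol sensor LXR, had log2 fold changes of -2.04, -1.36 and -2.52. Fasn, fatty acid synthase, was at 270, 268 and 272 CPM against 102, 101 and 112 CPM (log2 fold change 1.36 ± 0.07). Scd1, a desaturase, was lower at 12.2, 12.8 and 25.1 CPM against 49.7, 52.8 and 63.4 CPM. Of 30 genes of fatty acid oxidation 12 were higher and 9 lower (40% and 30%), near the 33.7% and 35.7% of all genes.

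Glutathione genes, the pathway that the mutants of this study target, had 14 of 37 members higher and 15 lower (37.8% and 40.5%), near the 33.7% and 35.7% of all genes. Gclc was lower in WT iTregs, at 56.5, 53.2 and 51.9 CPM against 78.7, 79.0 and 70.8 CPM (log2 fold change -0.5 ± 0.07, adjusted p = 4.88e-05). Gclm, the regulatory subunit of the same enzyme, was higher at 252, 256 and 243 CPM against 125, 127 and 166 CPM, and Gss, which performs the next step, rose by 1.5. The groups did not overlap for any of the 3. Glrx (glutaredoxin) and Gsta4, a glutathione transferase, had log2 fold changes of -1.51 and -3.77. In the thioredoxin system Txn1 was at 154, 156 and 188 CPM in iTregs and 52.6, 52.6 and 47.1 CPM in nTregs, and Txnrd1, Prdx2 and Prdx4 rose by 0.81, 1.02 and 1.1. Hmox1, heme oxygenase 1, fell by 2.26, and Nfe2l2, which encodes the factor NRF2 behind many of these genes, overlapped.

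Genes of DNA methylation and demethylation differed in both directions, 9 of 19 higher and 7 lower, against 33.7% and 35.7% of all genes; without iTreg library 2 or nTreg library 2, 4 were lower. Uhrf1, which guides maintenance methylation at replication forks, was at 184, 196 and 224 CPM in iTregs and 41.6, 41.6 and 35.7 CPM in nTregs (log2 fold change 2.35), and Dnmt1 and Dnmt3b rose by 1.15 and 1.27. Tet1, an enzyme of demethylation, fell by 0.47, and Tet2 overlapped. The Tet1 call was lost without iTreg library 1, iTreg library 2 or nTreg library 2 (adjusted p = 0.0673, 0.0513 and 0.0523).

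The 15 largest rises, among genes averaging at least 5 CPM in a group and outside the marker lists, included a membrane protein, several enzymes and Il17f. Pdpn, a mucin-type membrane protein, was at 5.96, 7.16 and 9.81 CPM in iTregs and had no count in nTregs, at least 235-fold higher. Cyp1a1, a cytochrome P450 induced by the aryl hydrocarbon receptor, was at 52.1, 53 and 42.9 CPM against 0.136, 0.202 and 0.124 CPM (log2 fold change 8.3 ± 0.35). Cyp1b1, induced by the same receptor, rose by 5.83. Ahrr, the repressor of that receptor and named after its values were seen, was at 5.9, 5.67 and 6.65 CPM against 0.17, 0.573 and 0.434 CPM. Akr1c18, a progesterone-degrading enzyme, was at 64.3, 44.5 and 54.7 CPM against 0.204, 0.269 and 0.279 CPM, and Cyp11a1, which makes pregnenolone from cholesterol, rose by 5.99. None of these overlapped between groups.

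The 15 largest falls by the same rule, which leaves out marker genes such as Cybb, Cd22 and Pax5, were all of genes with no count in iTregs. The rule ranks by the fitted fold change. For a gene with no count the data set only a lower bound on the fold, so such genes come first in part through the fit. Ccr3 was among the 15, while Ccr2, more abundant in nTregs and with few counts in iTregs, was not. Arnt2, a partner of basic helix-loop-helix PAS factors, was at 17.4, 20.1 and 13.4 CPM in nTregs. Cd180, Ctsh and Pirb, which B cells or myeloid cells express strongly, were at 9.84, 16.2 and 19.5 CPM, at 10.7, 14.7 and 19.9 CPM and at 9.43, 11.4 and 12.4 CPM. These 3 were highest in the third nTreg library, as were 20 of 21 B cell markers. So was Klrg1, a Treg signature gene that is also among the 15. Il23r, Ccr3 and Serpina3f were lowest in that library, as was Klrb1b of the NK cell list. That list did not move as one: 4, 3 and 2 of its 9 tested markers were highest in nTreg libraries 1, 2 and 3. Of 42 Treg signature genes 14, 20 and 8 were. Over all 3215 genes at least 2-fold lower, the highest nTreg library was library 1 for 963, library 2 for 1079 and library 3 for 1138, with 35 ties. The part of other cells in these falls was not tested.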

How the data were processed

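Poly(A) RNA of 12 libraries was sequenced with a stranded TruSeq kit, per the labels' protocols. The authors deposited raw counts per gene, made with featureCounts 1.5.2 on Ensembl GRCm38 release 87, reverse-stranded, each multi-mapping read adding a count wherever it aligned, per the file headers. Demultiplexing with bcl2fastq 2.18.0.12 and alignment with STAR 2.5.2b are given in the submitters' processing notes.

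Genes passing edgeR's filterByExpr were scaled by TMM and tested with edgeR 4.0.16 (R 4.3.3; glmQLFit and glmQLFTest) on the 4 group means of all 12 libraries, with 8 residual degrees of freedom. The Benjamini-Hochberg adjustment covered all 17977 genes, with a threshold of 0.05; standard errors are the fold change over the square root of F. The scripts were tested on simulated data (17721 genes, few of them changed): 64% of 2-fold and 86% of 4-fold changes were found, and 7 of 144 calls were false. The adjustment is stricter when few genes change, so these shares do not carry over to the data, where 69.5% of genes were called. Lower-bound folds use a floor of 3 counts over the group and, like the exact intervals, cover counting error only.

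The gene lists, the members and the tests were chosen with earlier results of these data known. Named were a set of Treg genes whatever their values, and by list and direction up to 6 called members with the largest changes (mean of at least 5 CPM in a group), up to 2 with the smallest, the 15 largest changes per direction, and the most abundant markers. Il9, Ahrr, Il17a, Cx3cr1, Il1rl2, Fkbp11, Slc7a11, Stc2, Rpl36, Gbp7, Slfn5, E2f7, Cdc6 and Mcm5 were named after their values were seen. Same-numbered libraries of the 2 groups did not deviate together (r = 0.05, 0 and -0.06), so numbers were not taken as pairs, though a shared origin is not excluded. Alternatives were RLE and library-size scaling, other filters, DESeq2 1.42.0, the 6 WT libraries alone, a replicate block, glmTreat and each library left out. The markers were also dropped from the results without a new fit, which removes only their own calls. Some results are not reported here. Promoters are from RefSeq (GRCm38.p6).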

Additional observations from a re-analysis of the deposited data

How the results depend on the processing

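The overall counts stayed within 1.5 times under every alternative but glmTreat, which tests for a change beyond 2-fold by construction and gave 3470 genes in place of 5241, and 1166 higher in place of 2026. Leaving out 1 library at a time gave 11669 to 13277 called genes (12486 with all), 5627 to 6382 of them higher and 6027 to 6895 lower, and 5175 to 5471 at least 2-fold. Without nTreg library 1, which had the most erythroid transcripts, 11818 genes were called, and without nTreg library 3, which had the most B cell transcripts, 11850. DESeq2 called 12343 genes, the 6 WT libraries alone 12824, no filter 12839 of 30451 and a filter of 1 CPM 11254 of 15308; under that filter more genes were higher (5690) than lower (5564) and the median log2 fold change was 0.01, the reverse of the balance without it. RLE scaling moved the median log2 fold change from -0.02 to -0.05 and library-size scaling to -0.07. With the replicate number as a block 12103 genes were called, 5246 at least 2-fold. Same-numbered deviations correlated at 0.05, 0 and -0.06, and the best differently numbered ones at 0.03, 0.05 and 0.07. Between a fresh sort and a culture such a check cannot exclude that same-numbered libraries share an origin. Under the block the Cd4 call was lost (adjusted p = 0.0508). Over the 562 genes open to be named, single alternatives took a call away 162 times, gave one 56 times and turned no called direction. Depth limits the genes at 0 in a group, whose folds are lower bounds. Of the simulated 2-fold changes 64% were found, with 144 calls in all against 12486 in the data. Few genes were changed in the simulation and depth was not varied in it, so that share does not carry over to the data.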

Other observations

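Lysosome and autophagy genes were lower more often than higher in iTregs, 20 and 9 of 37, against 35.7% and 33.7% of all genes. Ctsb, a cathepsin, was at 112, 114 and 124 CPM in iTregs and 207, 196 and 186 CPM in nTregs (log2 fold change -0.75 ± 0.07). Hexa and Ctss had log2 fold changes of -0.86 and -0.68, Ctss being abundant in antigen-presenting cells as well. Npc1, which exports cholesterol from lysosomes, went the other way, with a log2 fold change of 0.48. Of 27 genes of the unfolded protein response 8 were higher and 7 lower (29.6% and 25.9%), below the 33.7% and 35.7% of all genes, and 5 were higher without iTreg library 3, nTreg library 2 or nTreg library 3. Canx, a chaperone of the endoplasmic reticulum, rose by 0.61, and the sensors Ern1 and Atf6 had log2 fold changes of -1.3 and -0.77.

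In the BCL2 family 4 of 22 genes were higher and 7 lower (18.2% and 31.8%), against 33.7% and 35.7% of all genes. With library-size scaling 3 were higher and 10 lower, and with the 6 WT libraries alone 4 and 10. Mcl1, a survival factor, was at 396, 385 and 361 CPM in iTregs and 689, 688 and 659 CPM in nTregs (log2 fold change -0.83 ± 0.08), in the opposite direction to Bcl2l1. Bmf, which promotes cell death, was at 1.92, 1.98 and 2.89 CPM against 10.2, 10.5 and 14.1 CPM. Among amino acid transporters, 11 of 23 were higher and 8 lower, against 33.7% and 35.7% of all genes. Slc7a5 and Slc7a1, importers of large neutral and cationic amino acids, rose by 1.68 and 1.42, and Slc36a1, a lysosomal exporter, fell by 1.18.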
